A study of Mus musculus with 7 samples.

Results

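The genes described here encode the subunits of the AMPA and NMDA receptors, the main fast excitatory glutamate receptors of the brain. They were taken from a raw count table by exact gene symbol: Gria1 to Gria4 for the AMPA receptor, and Grin1, Grin2a, Grin2b, Grin2c, Grin2d and Grin3a for the NMDA receptor. These are 10 of the 35976 genes in the table, and 10 of its 11 Gria and Grin genes; the other one, Grin3b, is given for comparison only. The libraries were RNA-seq of cells prepared as neurons from the amygdala of male C57BL/6J mice, whose age is not given in the sources used here. In the control group, sgRosa (4 libraries), the virus (AAV) targeted the Rosa locus, and in the sgNr2f2 group (3 libraries) it targeted Nr2f2, a nuclear receptor transcription factor also called COUP-TFII. Both groups carried Cas9 under the Hsyn (synapsin) promoter, which is active in neurons, so that other cells in the preparation were not meant to be edited. Mice of both groups were kept for more than 2 weeks after the injection, then went through tube restraint on 7 days, fear conditioning on 1 day and extinction sessions on 3 days, so all 7 libraries come from stressed mice. The labels do not say whether a library came from 1 animal or from several, so p-values measure only the spread between these libraries.

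An AMPA receptor is a tetramer of GluA1 to GluA4 (genes Gria1 to Gria4). It opens within milliseconds of glutamate release and carries most fast excitatory current. GluA2, when its RNA has been edited, makes the channel nearly impermeable to calcium, and the number of receptors at a synapse changes during learning, including fear learning in the amygdala. An NMDA receptor holds the obligatory subunit GluN1 (Grin1) together with GluN2A to GluN2D (Grin2a to Grin2d) or GluN3A (Grin3a). The form with GluN2 subunits needs both glutamate and depolarization to pass current, admits calcium, and is required for many forms of synaptic plasticity. GluN2B is prominent in the young forebrain, and GluN2A joins it during postnatal development.

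On the GRCm38 (mm10) build, as annotated by GENCODE, the AMPA receptor genes lie at chr11:57011387-57330244 (Gria1, + strand), chr3:80681450-80802835 (Gria2, - strand), chrX:41400854-41678601 (Gria3, + strand) and chr9:4417896-4796234 (Gria4, - strand). Grin1 lies at chr2:25291181-25319187, Grin2a at chr16:9567898-9995560, Grin2b at chr6:135713233-136173511, Grin2c at chr11:115249169-115267243, Grin2d at chr7:45831883-45878378 and Grin3a at chr4:49661611-49845744, all on the - strand. Counts were summed over a whole gene, so they do not separate exons, UTRs or splice forms.

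RefSeq promoter windows (GRCm38.p6) were at hand for 5 of the 10 genes: Grin1, Gria2, Grin2d, Gria4 and Grin2c. Each window was searched on both strands for AGGTCA (the core motif of NR2F factors, the family of the targeted gene), for a direct repeat of that motif (AGGTCA, 1 base, AGGTCA), for GGGCGG (SP1), for the cAMP response element (TGAC followed at once by GTCA) and for the NRF1 motif (GCGCA followed at once by TGCGC). The core motif also lies inside the direct repeat. Grin2c held the NR2F core motif, from position -248 to -243 of its start site, and 3 copies of GGGCGG between -50 and -30, of which the last pair overlap by 1 base. Grin1 held 1 GGGCGG just after its start site, at +9 to +14. Grin2d, Gria4 and Gria2 held none of the motifs searched. The RefSeq window of Grin2d lies inside the GENCODE gene span given above, so it does not cover the start of that span. Of all 32851 RefSeq promoter windows of this length, 16.3% held the core motif, 35.7% GGGCGG, 0.0396% the direct repeat, 1.79% the cAMP response element and 0.971% the NRF1 motif. A match is a run of letters in the window and not evidence of binding. The 250 bases upstream of the start are shown 5′ to 3′ for Grin2c, the only window of these 5 with a core motif, and for Grin1 and Gria2, the obligatory NMDA subunit and the calcium-limiting AMPA subunit on which the ratios below turn. The windows are chr11:115267244-115267493 (Grin2c), chr2:25319188-25319437 (Grin1) and chr3:80802836-80803085 (Gria2), each on the - strand, and capitals mark motif matches.
Grin2c: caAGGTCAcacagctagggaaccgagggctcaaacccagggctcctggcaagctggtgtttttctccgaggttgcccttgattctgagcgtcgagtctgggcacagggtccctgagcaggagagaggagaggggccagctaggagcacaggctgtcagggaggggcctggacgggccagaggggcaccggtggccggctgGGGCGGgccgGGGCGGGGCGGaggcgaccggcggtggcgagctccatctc
Grin1: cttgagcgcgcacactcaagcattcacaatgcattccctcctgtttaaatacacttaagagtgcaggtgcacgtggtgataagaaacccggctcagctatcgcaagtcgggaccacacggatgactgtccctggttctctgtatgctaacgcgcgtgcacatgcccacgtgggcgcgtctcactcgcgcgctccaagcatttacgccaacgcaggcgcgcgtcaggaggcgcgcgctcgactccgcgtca
Gria2: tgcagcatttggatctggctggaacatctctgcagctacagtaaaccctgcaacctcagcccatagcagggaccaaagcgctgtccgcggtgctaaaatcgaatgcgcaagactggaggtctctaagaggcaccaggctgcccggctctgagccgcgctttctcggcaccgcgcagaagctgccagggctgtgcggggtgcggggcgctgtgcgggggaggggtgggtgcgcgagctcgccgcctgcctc

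Total counts ran from 6266897 to 20928677 per library, and the lowest was that of sgRosa replicate 4. That library stood apart: it held the least RNA of oligodendrocyte markers and the most of erythroid and pan-neuronal genes, each list taken as a whole. These values are given below beside the results they move with. Fold changes without it are given beside many of the results. The targeted gene itself, Nr2f2, lay at 15.2 ± 3.76 CPM (counts as a share of the library, set to one total with TMM factors; SD, n = 4) in sgRosa, against 11.8 ± 0.22 CPM (n = 3) in sgNr2f2, with a log2 fold change of -0.36 (SE 0.37, edgeR adjusted p = 0.905). An edit of the gene need not lower its RNA. In bulk RNA, fewer neurons and less receptor RNA per neuron cannot be told apart. The 10 subunit genes together took between 0.0135% and 0.113% of a library's counts.

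All 4 AMPA receptor genes were measured in every library. Gria2, whose product limits calcium entry, had the most counts of the 10 genes. Its level was 184.9, 43.4, 61.8 and 126.9 CPM in sgRosa replicates 1 to 4, against 54.6, 63.7 and 58.9 CPM in sgNr2f2 replicates 1 to 3. Replicate 1 of sgRosa was the highest, and all 3 sgNr2f2 libraries lay within the sgRosa range. Gria1, the subunit most tied to activity-dependent delivery of receptors to synapses, lay at 76.5, 29.7, 39.2 and 217.8 CPM in sgRosa, against 32.8, 34.0 and 34.0 CPM in sgNr2f2. The 3 sgNr2f2 values differed little (33.6 ± 0.71 CPM, SD, n = 3), whereas the sgRosa values spread widely (90.8 ± 87.0 CPM, n = 4), with replicate 4 at the top. Gria3 lay at 59.3, 13.7, 29.8 and 99.3 CPM in sgRosa, against 26.4, 17.04 and 20.8 CPM in sgNr2f2. It had the same high pair as Gria1, replicates 4 and 1 of sgRosa, and every sgNr2f2 value fell inside the sgRosa range. Gria4, whose fast receptors are found in many interneurons and also in glia of the oligodendrocyte lineage, lay at 18.5, 24.5, 19.2 and 34.3 CPM in sgRosa, against 22.6, 12.6 and 18.3 CPM in sgNr2f2. It varied least of the 4 genes in sgRosa, where its highest value was under 2-fold its lowest.

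Among the NMDA receptor genes, Grin1 had the widest range. It lay at 48.2, 14.3, 36.3 and 376.5 CPM in sgRosa replicates 1 to 4, against 32.5, 30.9 and 25.7 CPM in sgNr2f2. Replicate 4 alone set the sgRosa mean of 118.8 ± 172.4 CPM (SD, n = 4): without it the mean was 33.0 ± 17.2 CPM (n = 3), against 29.7 ± 3.58 CPM in sgNr2f2. Grin2d, which encodes a slowly closing subunit found in interneurons, ranked the 4 sgRosa libraries in the same order, with 5.34, 1.62, 4.15 and 42.7 CPM in sgRosa, against 3.21, 3.87 and 2.54 CPM in sgNr2f2. Grin2b lay at 30.4, 8.28, 8.77 and 18.4 CPM in sgRosa, against 16.4, 7.68 and 12.7 CPM in sgNr2f2. Its highest library was replicate 1 of sgRosa, as for Gria2, and not replicate 4. Grin3a, whose subunit lowers calcium entry, lay at 16.8, 8.01, 14.8 and 46.2 CPM in sgRosa, against 15.6, 10.4 and 4.36 CPM in sgNr2f2. Its lowest value was that of sgNr2f2 replicate 3, and the groups overlapped. Grin2c, a subunit best known from cerebellar granule cells and astrocytes, had only 6 to 37 counts per library, or 0.28, 1.35, 0.75 and 4.22 CPM in sgRosa, against 2.24, 0.95 and 1.27 CPM in sgNr2f2. In sgRosa replicate 1, where Gria2 and Grin2b were highest, Grin2c was lowest.

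Grin2a had few counts. How the reads were assigned to it is not known, since annotation, strand setting and treatment of reads with several hits are not stated, and the part of counting in its low value was not tested. It had 7, 0, 4 and 4 counts in sgRosa and 0, 1 and 0 in sgNr2f2, 16 in all, and did not pass the filter on low counts that the other 9 genes passed. Of the counts of Grin2a and Grin2b together, Grin2a took 1.07% (95% exact binomial interval 0.430 to 2.19%), 0%, 3.01% (0.825 to 7.52%) and 2.88% (0.790 to 7.20%) in sgRosa replicates 1 to 4. It took 0%, 0.725% (0.0183 to 3.97%) and 0% in sgNr2f2 replicates 1 to 3. A count of 0 allowed shares of up to 1.96% in sgRosa replicate 2, 1.1% in sgNr2f2 replicate 1 and 1.44% in sgNr2f2 replicate 3, taking 3 counts as the floor, and up to 2.38%, 1.36% and 1.75% by the exact interval. PCR reads without molecular identifiers are not independent molecules, so these intervals and floors cover counting error only. Grin3b, the second glycine-binding GluN3 gene, was also near 0, with 0 to 27 counts.

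**Figure D1:**
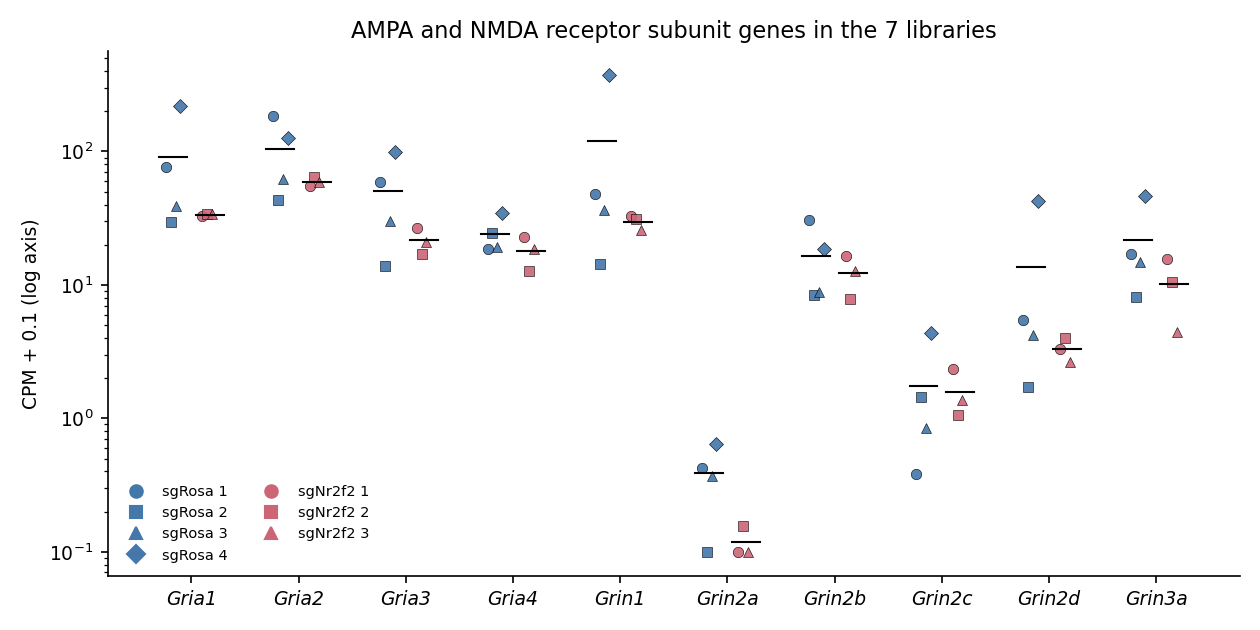
Level of each of the 10 subunit genes in the 7 libraries, as CPM + 0.1 on a log axis, with one point per library and a short line at each group mean. The sgRosa 4 diamonds stand highest for 8 genes, at 376.5 CPM for Grin1, whereas sgRosa 1 is highest for Gria2 (184.9 CPM) and Grin2b (30.4 CPM), and Grin2a lies near 0 throughout.

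Levels of different genes were compared per kb of annotated exon (CPM per kb of exon union). Over all 7 libraries the order was Gria1 (11.0), Grin1 (8.31), Gria2 (5.46), Gria3 (3.86), Gria4 (3.40), Grin2d (1.36), Grin3a (1.35), Grin2b (0.59), Grin2c (0.31) and Grin2a (0.0096). Neighbours were not equally well separated. Gria1 was above Grin1 in 6 of 7 libraries, Gria2 above Gria3 in 6, Gria4 above Grin2d in 6, Grin3a above Grin2b in 6, Grin2b above Grin2c in 6 and Grin2c above Grin2a in 7. Grin1 was above Gria2 in only 1 library, sgRosa replicate 4, Gria3 above Gria4 in 2 and Grin2d above Grin3a in 2, so these 3 steps rest on a minority of libraries. In sgNr2f2 alone, Gria1 stood at 5.56 ± 0.12 CPM per kb (SD, n = 3), Gria2 at 3.80 ± 0.30 and Grin1 at 3.06 ± 0.37. Gria4 (2.83 ± 0.80) and Gria3 (2.17 ± 0.48) overlapped between libraries, although with this length Gria4 was above Gria3 within each of the 3. Grin2b (0.49 ± 0.18) and Grin2d (0.48 ± 0.10) did not differ beyond their spread, and neither was above the other in every library. The order also depended on the length used. With the longest single transcript as the length, Grin1 led in both groups, at 27.8 CPM per kb in sgRosa and 6.94 in sgNr2f2, ahead of Gria1 at 16.4 and 6.06. Its lead in sgRosa rested on replicate 4, without which Gria2 (9.32) and Gria1 (8.74) stood above Grin1 (7.71). With the longest transcript Gria3 was above Gria4 in each of the 3 sgNr2f2 libraries (means 4.12 and 3.28), the reverse of the order per exon union.

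The 2 families shifted against each other between libraries. The ratio of summed AMPA to summed NMDA receptor counts was 3.34, 3.32, 2.31 and 0.979 in sgRosa replicates 1 to 4, against 1.95, 2.37 and 2.84 in sgNr2f2 replicates 1 to 3. Only in sgRosa replicate 4 did the NMDA receptor genes outnumber the AMPA receptor genes. Within the AMPA family, Gria1 took 60.3% of the summed CPM per kb in that library and 35.7 to 41.8% in the other 6, while Gria2 took 13.7% there and 21.5 to 35.5% in the others. Within the NMDA family, Grin1 took 76.7% in that library and 49.6 to 63.8% in the others, and Grin2b 1.46% against 5.80 to 14.5%. Gria4 took from 8.75% of the AMPA sum in sgRosa replicate 1 to 29.9% in sgRosa replicate 2.

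**Figure D2:**
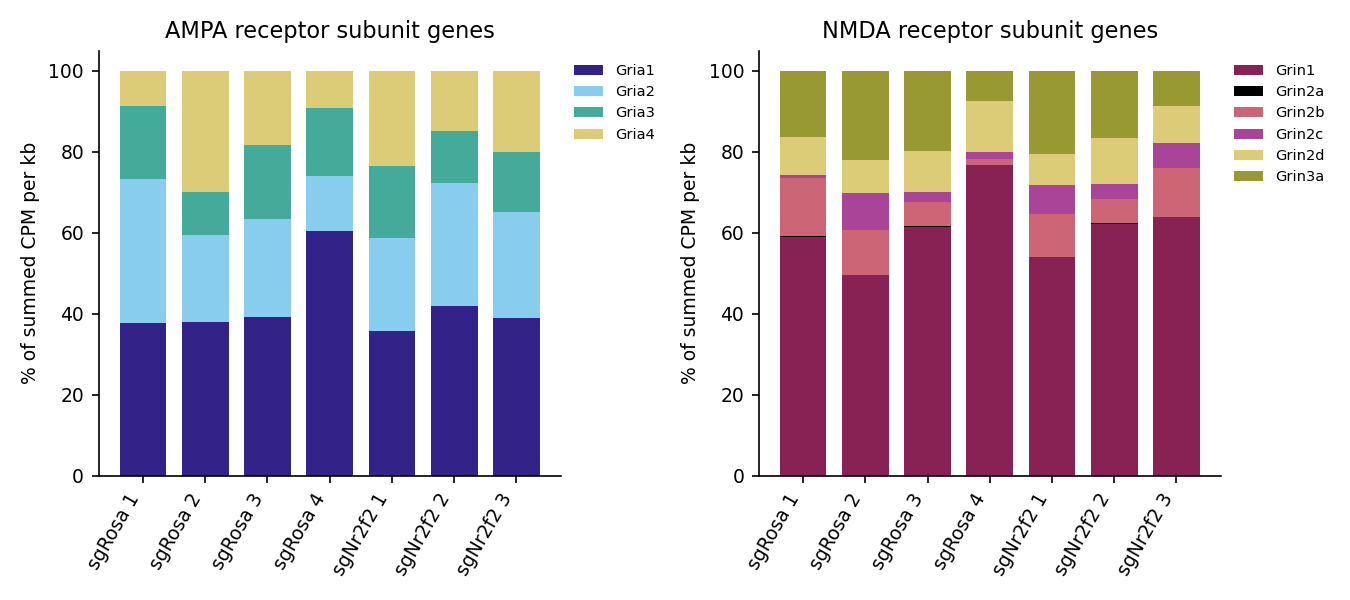
Share of each gene in the summed CPM per kb of its receptor family, one bar per library (AMPA left, NMDA right, axes from 0 to 100%). Gria1 and Grin1 fill 60.3% and 76.7% of their bars in sgRosa 4, against 35.7 to 41.8% and 49.6 to 63.8% in the other 6 libraries.

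A ratio of counts of 2 genes in the same library does not depend on library scaling, and 4 such ratios were compared between the groups. The Gria1 to Gria2 count ratio was 0.414, 0.685, 0.635 and 1.72 in sgRosa and 0.600, 0.533 and 0.578 in sgNr2f2. The log2 ratio was lower by 0.39 in sgNr2f2 (log2 difference -0.39; exact two-sided permutation p = 0.629, adjusted p = 0.83 over 4 ratios), and the difference was 0.013 without sgRosa replicate 4. The Grin2b to Grin1 count ratio was 0.631, 0.580, 0.242 and 0.049 in sgRosa and 0.503, 0.249 and 0.493 in sgNr2f2, a log2 difference of 0.62 (exact permutation p = 0.743, adjusted p = 0.83), which was -0.17 without sgRosa replicate 4. Replicate 4 thus lay outside the range of the other 6 libraries in both ratios. The Gria4 to Gria2 ratio ran from 0.0999 to 0.564 in sgRosa and from 0.197 to 0.414 in sgNr2f2, with a log2 difference of 0.16 (exact permutation p = 0.83, adjusted p = 0.83). It was -0.30 without sgRosa replicate 1 and -0.082 without sgNr2f2 replicate 1. The Grin2a to Grin2b log2 ratio, with 0.5 added to each count, was -6.11 ± 1.61 in sgRosa (n = 4) and -8.10 ± 1.38 in sgNr2f2 (n = 3), a difference of -1.99 that rests on 16 counts of Grin2a (exact permutation p = 0.114, adjusted p = 0.457). The smallest p that 4 against 3 libraries can give is 0.0286, before adjustment.

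Comparing sgNr2f2 with sgRosa asks whether receptor subunit RNA differed when Nr2f2 was targeted in stressed mice. All 9 genes that passed the filter had a log2 fold change below 0, with Grin2c at -0.10; of all 14412 genes tested, 56.2% lay below 0. The largest estimates were those of Grin2d at -2.05 (SE 1.00, 95% interval -4.26 to 0.16) and Grin1 at -1.999 (SE 0.99, -4.19 to 0.19). Gria1 lay at -1.43 (SE 0.68, -2.94 to 0.070), Gria3 at -1.24 (SE 0.62, -2.62 to 0.14), Grin3a at -1.08 (SE 0.65, -2.52 to 0.36) and Gria2 at -0.82 (SE 0.54, -2.02 to 0.39). Gria4 and Grin2b both lay at -0.43 (SE 0.40 and 0.54), and Grin2c at -0.10 (SE 0.90). None of the 9 passed in edgeR's quasi-likelihood test: adjusted p-values were 0.868 for 6 of them and 0.899, 0.921 and 0.991 for Gria4, Grin2b and Grin2c. No interval excluded 0. None reached an unadjusted p below 0.05 either, which 2.18% of all genes did on the higher and 2.82% on the lower side, and in none were the groups apart, against 4.41% of genes with every sgNr2f2 library higher and 3.9% with every one lower. Across all genes 0% passed in either direction. The intervals are wide and allow a fall by several fold for Grin1 and Grin2d as well as no change.

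These estimates depended strongly on sgRosa replicate 4. Without it, the log2 fold change was -0.15 for Grin1 (95% interval -1.05 to 0.75), -0.21 for Grin2d (-1.37 to 0.95) and -0.53 for Gria1 (-1.32 to 0.26). Gria3 lay at -0.68, Grin3a at -0.39 and Gria4 at -0.22, while Grin2c turned to 0.90 (-0.86 to 2.66). Gria2 (-0.71) and Grin2b (-0.38) moved little. For those last genes sgRosa replicate 1 weighed more: without it Gria2 lay at -0.40 and Grin2b at 0.047. In the 6 libraries, 8 of 9 genes were below 0, against 52.5% of all genes tested, and their median was -0.38 compared with -0.033 for all genes; none passed (edgeR adjusted p from 0.631 to 0.933). DESeq2 called 2.28% of genes without sgRosa replicate 4, and none of the 9 was among them (adjusted p from 0.663 to 0.973).

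**Figure D3:**
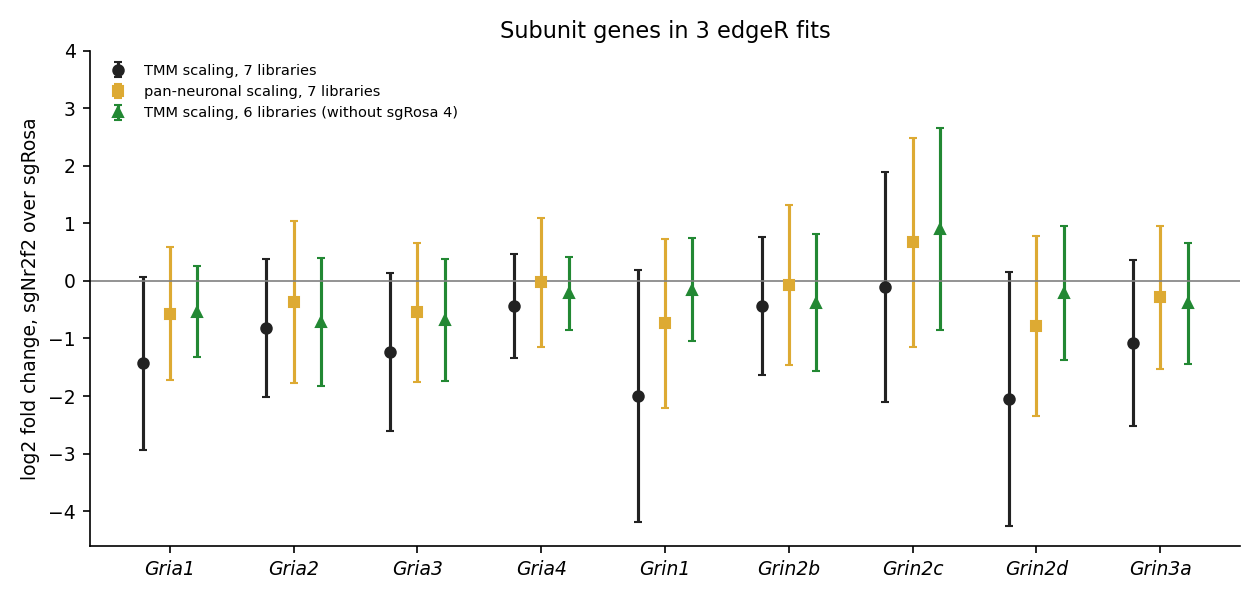
Log2 fold change of sgNr2f2 over sgRosa for the 9 genes that passed the filter, in 3 edgeR fits: TMM scaling with 7 libraries (circles), scaling to pan-neuronal genes with 7 libraries (squares) and TMM scaling without sgRosa 4 (triangles). Bars are 95% intervals, all of which cross 0, and the estimates for Grin1 and Grin2d move from -1.999 and -2.05 with TMM to -0.15 and -0.21 without sgRosa 4.

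The subunit genes were then set against general neuronal content, measured by 16 genes that neurons of most types express, such as Syt1 (a calcium sensor of transmitter release), Elavl3 (an RNA-binding protein) and Stmn3 (a microtubule regulator). Their geometric mean was 44.3, 35.3, 48.6 and 139.4 CPM in sgRosa, against 42.7, 34.0 and 46.5 CPM in sgNr2f2. By this mean sgRosa replicate 4 was also the highest, and the other 6 libraries lay close together. All genes of the list but Snap25 and Elavl4 were highest there. Snap25 was lowest there, at 36.9 CPM against 127.7 to 205.7 CPM in the other 6. Elavl4 lay at 7.50 CPM there, below the 11.3 to 15.0 CPM of the other sgRosa libraries. Elavl3 lay at 218.1 ± 147.3 CPM in sgRosa (n = 4), against 223.2 ± 110.8 CPM in sgNr2f2 (n = 3), Syt1 at 246.5 ± 217.9 and 104.9 ± 30.1 CPM, and Stmn3 at 225.7 ± 327.1 and 50.02 ± 3.70 CPM. Without sgRosa replicate 4 their log2 fold changes went from 0.034 to 0.60 for Elavl3, from -1.23 to -0.45 for Syt1 and from -2.17 to -0.32 for Stmn3. Of the 16, 14 had a log2 fold change below 0 with all libraries (median -0.70), against 56.2% of all genes, and none passed. Without sgRosa replicate 4, 9 of 16 were below 0, against 52.5% of all genes, and the median was -0.19.

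With library sizes set by these genes in place of TMM, the differences of the subunit genes shrank, except that of Grin2c, which grew and changed sign. Gria2 with Grin3a, and Gria4 with Grin2b, exchanged places in the order. Grin2d lay at -0.78 (SE 0.71), Grin1 at -0.74 (SE 0.67), Gria1 at -0.57 (SE 0.53), Gria3 at -0.55 (SE 0.55), Gria2 at -0.36 (SE 0.64) and Grin3a at -0.29 (SE 0.56). Grin2b (-0.071, SE 0.63) and Gria4 (-0.022, SE 0.51) were close to 0, and Grin2c was at 0.67 (SE 0.83). Thus 8 of 9 genes were below 0 on this scale, which 33.1% of all genes were, and the median of the 9 was -0.36 compared with 0.24 for all genes. On the TMM scale the corresponding medians were -1.08 and -0.11, so the subunit genes lay lower than the median gene by 0.97 on the TMM scale and by 0.60 on the neuronal scale, in log2 units. Without sgRosa replicate 4 these gaps were 0.34 and 0.27. No subunit gene passed (edgeR adjusted p = 1.00 for each), and 0% of all genes did. When sgRosa replicate 4 was also left out, 0.262% of genes passed, none of them a subunit gene (edgeR adjusted p from 0.821 to 1.00). The estimates were then -0.014 for Grin1, -0.056 for Grin2d, -0.44 for Gria1, -0.58 for Gria3 and -0.60 for Gria2, and 8 of 9 were below 0, against 48.6% of all genes.

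Relative to neuronal content, sgRosa replicate 4 was not uniformly high. Grin1 lay 1.43 log2 units above the pan-neuronal mean there and between -1.29 and 0.13 in the other 6 libraries, and Grin2d lay at -1.70, above the range of -4.33 to -3.02 elsewhere. Gria2 lay at -0.13 there, below its range of 0.30 to 2.06 elsewhere. Gria4 (-2.02) and Grin2b (-2.91) were likewise below their ranges in the other 6 libraries, of -1.42 to -0.52 and -2.45 to -0.54. The remaining 5 genes, Gria1, Gria3, Grin2a, Grin2c and Grin3a, lay within theirs. On the plain CPM scale, replicate 4 exceeded the mean of the other sgRosa libraries 11.5-fold for Grin2d, 11.4-fold for Grin1, 5.32-fold for Grin2c, 4.49-fold for Gria1, 3.50-fold for Grin3a and 2.90-fold for Gria3. The excess was 1.66-fold for Gria4, 1.31-fold for Gria2 and 1.16-fold for Grin2b.

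Base composition moved with this pattern. The longest annotated transcript had a GC content of 65.0% for Grin2d, 62.1% for Grin2c and 59.4% for Grin1, and of 36.8% for Gria2, 39.8% for Gria3, 44.3% for Gria4 and 45.7% for Grin2b. Across the 9 subunit genes, Spearman's rho between GC content and the log2 difference of sgRosa replicate 4 from the other sgRosa libraries was 0.82, as a description over genes that share the same libraries. It was 0.61 over the 16 pan-neuronal genes and 0.41 over 13548 genes with an annotated transcript. With these genes ranked by GC content into 4 equal groups, the median log2 difference ran from -1.14 in the lowest group through -0.59 and 0.18 to 1.00 in the highest. The relation was loose among low-GC neuronal genes. Snap25, a vesicle fusion protein (38.7% GC), lay at 36.9 CPM there and at 127.7 to 205.7 CPM in the other 6, and Elavl4 (38.9%) differed from the mean of the other 3 sgRosa libraries by -0.82 in log2 units, whereas Stmn2 (41.3%) and Gria3 (39.8%) differed by 1.25 and 1.77. A trend with GC content was also present among the other 6 libraries. With sgRosa replicate 4 left out, rho over all genes between GC content and the difference of a library from the mean of the remaining 5 was -0.19, -0.23 and -0.24 for sgRosa replicates 1 to 3, against 0.19, 0.14 and 0.22 for the sgNr2f2 libraries, so its sign followed the group. With a correction for GC content, chosen after seeing the data, the log2 fold changes of sgNr2f2 over sgRosa were -1.49 for Grin1, -1.38 for Grin2d, -1.63 for Gria1, -1.64 for Gria3 and -0.90 for Gria2. With the same correction and without sgRosa replicate 4 they were -0.48, -0.57, -0.46, -0.31 and -0.26. The part of base composition in the difference of that library was not tested.

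**Figure D4:**
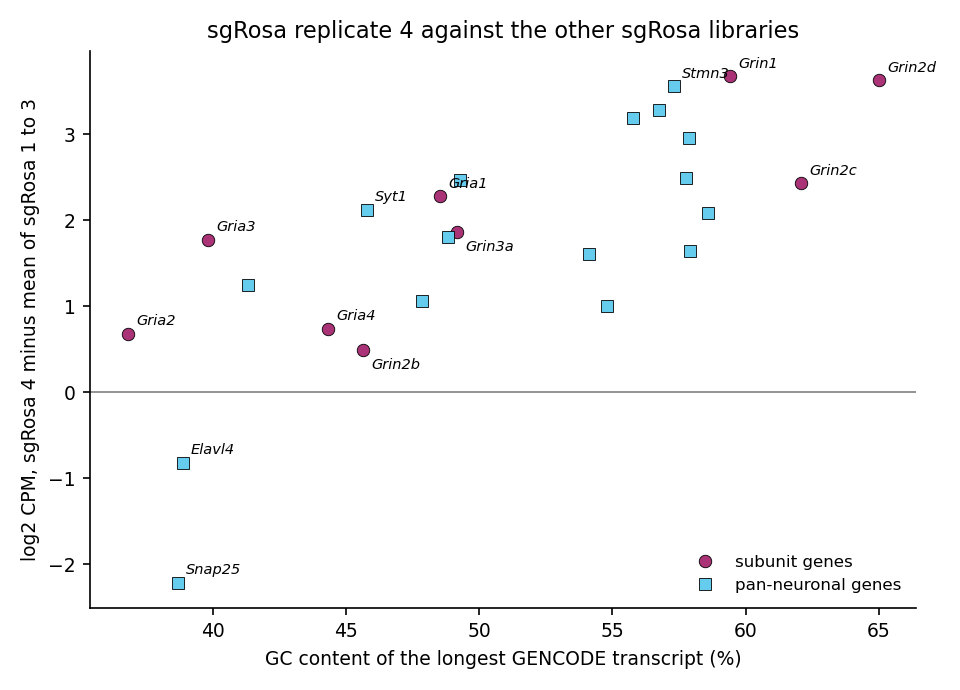
GC content of the longest transcript (x axis, %) against the log2 CPM of sgRosa 4 minus the mean of sgRosa 1 to 3 (y axis), for 9 subunit genes (circles) and 16 pan-neuronal genes (squares). Grin1 and Grin2d, at 59.4% and 65.0% GC, stand 3.68 and 3.63 above the other sgRosa libraries, Gria2, at 36.8%, stands 0.68 above, and Snap25, at 38.7%, stands -2.22 from them.

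The make-up of cells also differed between libraries, and its part in the subunit results was not tested. The 10 markers of excitatory neurons summed to 154.4, 55.9, 61.0 and 191.5 CPM in sgRosa, against 83.6, 33.1 and 67.8 CPM in sgNr2f2, so that sgRosa replicates 1 and 4 were the highest, as they were for Gria1, Gria2, Gria3, Grin1, Grin2b, Grin2d and Grin3a. The sum of replicate 4 came mostly from Slc17a6 (138.5 CPM) and Cck (40.5 CPM), while Nrn1 (1.50 CPM) was lower there than in the other 6 libraries and Slc17a7 (7.50 CPM) lower than in 3 of them. Of these markers Slc17a6, a vesicular glutamate transporter, was the most abundant, at 17.3 to 138.5 CPM. Slc17a7 ran from 0.28 to 23.4 CPM, and Neurod2 and Neurod6 were at 0 in 2 and 1 of the 7 libraries. The 10 markers of GABA neurons summed to between 108.8 and 292.7 CPM in sgRosa, against 91.3 and 142.5 CPM in sgNr2f2, with the highest sum in sgRosa replicate 4. That sum came mostly from Sst (98.7 CPM), Pvalb (64.5 CPM) and Gad2 (47.4 CPM), while Gad1 was lowest there (4.50 CPM, against 10.1 to 18.3 CPM) and Dlx2 was at 0, as it was in sgNr2f2 replicate 1. The 8 markers of oligodendrocyte precursors, cells that also carry AMPA receptors, summed to 149.2, 234.7, 186.0 and 123.1 CPM in sgRosa, against to 302.1, 74.2 and 256.2 CPM in sgNr2f2. The share of Gria4 in the AMPA receptor counts was 5.45, 21.98, 12.8 and 7.18% in sgRosa, against 16.6, 9.86 and 13.9% in sgNr2f2, and its 4 highest values fell in the 4 libraries with the highest sums of these markers. The precursor marker Pdgfra lay at only 0.67 to 4.49 CPM, and most of the sum was Olig1, which mature oligodendrocytes share. The same 4 libraries were the highest for Olig1 and for Olig2, but not for any other of these markers. Gpr17 was highest in sgRosa replicate 1 (27.0 CPM), where the share of Gria4 was lowest, so the match rested mostly on Olig1. Although the preparation was meant to keep neurons, the 10 oligodendrocyte markers took between 2.69% and 32.2% of a library's counts, and least in sgRosa replicate 4. Erythroid genes summed to 31591 CPM in that library and to between 1049 and 3063 CPM in the other 6. The 10 astrocyte markers summed to between 501.3 and 2540 CPM in sgRosa, against between 1066 and 1807 CPM in sgNr2f2, with the lowest sum in sgRosa replicate 1. Endothelial sums (8 markers) ran from 2991 to 6954 CPM in sgRosa, against from 3150 to 7635 CPM in sgNr2f2, and microglial sums (8 markers) from 19.9 to 38.2 and from 24.8 to 35.9 CPM.

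Of the other ionotropic glutamate receptor genes (kainate and delta receptors and Grin3b), 7 of 8 passed the filter and none passed the test. Of these 7, 5 lay below 0, against 56.2% of all genes, and the median was -0.68. Without sgRosa replicate 4 the median was -0.65, close to the value with it. Grid1, a delta receptor that acts as a synaptic organizer, lay at 12.4 ± 8.84 CPM in sgRosa, against 5.25 ± 0.78 CPM in sgNr2f2 (log2 fold change -1.23, SE 0.57, edgeR adjusted p = 0.868, and -0.65 without sgRosa replicate 4). The kainate receptor gene Grik1 lay at 7.01 ± 4.59 and 2.79 ± 1.54 CPM (-1.32, SE 0.63, and -0.79 without that library). Its relative Grik5 lay on the other side, at 4.51 ± 1.68 and 8.10 ± 3.05 CPM (0.86, SE 0.47, and 1.13 without it).

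Proteins that travel with AMPA receptors and set their gating and delivery were taken as a further group. Of 16 genes 15 passed the filter, and 10 of them lay below 0, against 56.2% of all genes. Their median was -0.77, compared with -0.11 for all genes. Without sgRosa replicate 4 it was 0.20, compared with -0.033. On the pan-neuronal scale it was 0.11, compared with 0.24. Shisa9 (CKAMP44), an auxiliary subunit that alters receptor desensitization, lay at 17.3, 7.69, 8.98 and 22.1 CPM in sgRosa, against 5.81, 5.61 and 5.02 CPM in sgNr2f2. Every sgNr2f2 library was lower than every sgRosa library, and the log2 fold change was -1.35 (SE 0.49, edgeR adjusted p = 0.868) and -1.05 without sgRosa replicate 4. It was the only one of the 15 whose groups did not overlap, where 3.9% of all genes had every sgNr2f2 library lower. Frrs1l, needed for assembly of the receptor, lay at 37.7 ± 19.3 and 18.6 ± 2.80 CPM, and Olfm2, a secreted AMPA receptor partner, at 40.0 ± 48.8 and 13.4 ± 5.91 CPM. The log2 fold change of Olfm2 was -1.58 with sgRosa replicate 4 (111.9 CPM, against 8.01 to 28.9 CPM in the other sgRosa libraries) and -0.26 without it, and that of Frrs1l went from -1.01 to -0.68.

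Of 15 genes for trafficking and anchoring of receptors, 10 lay below 0 (median -0.33), against 56.2% of all genes, and none passed. The median was -0.15 without sgRosa replicate 4 (all genes -0.033) and -0.0037 on the pan-neuronal scale (all genes 0.24). The neuronal pentraxin Nptx1, which gathers AMPA receptors at synapses, lay at 35.6, 3.90, 18.2 and 47.2 CPM in sgRosa, against 5.51, 8.13 and 10.3 CPM in sgNr2f2 (log2 fold change -1.71, SE 0.71, edgeR adjusted p = 0.868). The low value of sgRosa replicate 2 made the groups overlap. Neuroplastin (Nptn), a synaptic adhesion protein, lay at 59.98 ± 49.2 and 21.0 ± 1.48 CPM, and Neto1, an auxiliary protein of kainate receptors that also associates with NMDA receptors, at 8.88 ± 8.53 and 2.92 ± 1.98 CPM. Leaving out sgRosa replicate 4 moved the log2 fold changes of Nptx1 to -1.27, of Nptn from -1.51 to -0.79 and of Neto1 from -1.59 to -0.73.

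Of 13 signalling partners of the NMDA receptor, 8 lay below 0, against 56.2% of all genes. They had a median of -0.12, close to that of all genes (-0.11). Without sgRosa replicate 4 their median was 0.18. Homer1, a scaffold that links glutamate receptors to internal calcium stores, was higher in each sgNr2f2 library (16.7, 12.3 and 11.7 CPM) than in any sgRosa library (10.03, 8.07, 10.8 and 9.68 CPM), with a log2 fold change of 0.49 (SE 0.37, edgeR adjusted p = 0.874). It was the only one of the 13 whose groups did not overlap, where 4.41% of all genes had every sgNr2f2 library higher. Shank1, another scaffold of the postsynaptic density, lay at 2.39, 3.09, 5.44 and 20.2 CPM in sgRosa, against 23.02, 9.47 and 12.5 CPM in sgNr2f2. Its log2 fold change was 0.97 (SE 0.72) with all libraries and 2.05 without sgRosa replicate 4. That direction was opposite to that of the subunit genes, except Grin2c (0.90) without that library. The GC content of Shank1 was 61.4%, and the part of base composition in its difference was not tested. Rasgrf2, a calcium-dependent Ras activator, lay at 20.2 ± 13.9 and 10.9 ± 3.13 CPM, and its log2 fold change of -0.89 was -0.30 without sgRosa replicate 4.

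The enzymes that edit RNA were included because Adarb1 (ADAR2) edits the Gria2 transcript at the site that sets calcium permeability. Adarb1 lay at 19.1, 25.0, 21.4 and 21.8 CPM in sgRosa, against 66.02, 27.3 and 49.5 CPM in sgNr2f2. Every sgNr2f2 library was higher than every sgRosa library, as for 4.41% of all genes, and the 4 sgRosa libraries, replicate 4 included, lay close together. The log2 fold change was 1.12 (SE 0.40) with all 7 libraries, 1.12 without sgRosa replicate 4 and 1.39 on the pan-neuronal scale. It did not pass (edgeR unadjusted p = 0.0181, adjusted p = 0.868). Gria2 RNA, its substrate, had a log2 fold change of -0.82 (SE 0.54) between the same groups, and editing itself cannot be read from gene counts. Adar lay at 27.3 ± 11.7 and 26.0 ± 3.32 CPM, and Adarb2 at 2.03 ± 1.01 and 2.58 ± 1.44 CPM.

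The subunit genes did not all vary together. Over the 36 pairs of the 9 genes, the median Pearson correlation of log2 CPM was 0.61 across the 7 libraries, with 34 pairs above 0. Across the 6 libraries without sgRosa replicate 4 it was 0.50, with 24 pairs above 0, and Grin2c against Gria1 was lowest at -0.89. Libraries share depth and cell make-up, so these are descriptions. The correlation with the mean of the pan-neuronal genes over 7 libraries ran from 0.95 for Grin1 and 0.94 for Grin2d to 0.41 for Grin2b. Over 6 libraries it was 0.63 for Gria3, 0.53 for Grin1, 0.45 for Grin2b and 0.12 for Grin3a, and -0.22 for Grin2c.

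Among 9814 genes with a mean of at least 5 CPM, the profiles most like the mean of the 9 subunit genes over 7 libraries were those of Syt13 (Pearson r = 0.993), Susd4 (0.992), Syp (0.992), Tenm4 (0.992) and Adgra1 (0.991). Syp, which encodes the synaptic vesicle protein synaptophysin, lay at 102.0, 42.0, 77.1 and 374.8 CPM in sgRosa, against 73.2, 61.7 and 58.4 CPM in sgNr2f2. Tenm4, a teneurin of neuronal contacts, lay at 43.9, 24.1, 29.7 and 149.5 CPM and at 33.2, 27.0 and 27.2 CPM. Both had the high replicates 4 and 1 and the low replicate 2 of sgRosa, which follows from choosing them by likeness. Over the 6 libraries without sgRosa replicate 4, Tenm4 came first (r = 0.989), followed by Slc35e1, Slitrk3, Kcnj3 and Sorcs3. Of the pan-neuronal genes, Syt1 had an r of 0.978 over 7 libraries and 0.952 over 6, whereas Snap25 had -0.79 and 0.54. Over the 6 libraries r was below 0 for Tubb3 (-0.16), Eno2 (-0.30), Nefl (-0.35), Nefm (-0.34), Elavl3 (-0.28) and Uchl1 (-0.41). It was above 0 for the rest of the list. The pan-neuronal genes thus did not all follow the same pattern there, which limits their mean as a measure of neuronal content.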

How the data were processed

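RNA-seq was measured in 7 libraries. The values deposited by the authors are whole-number counts of reads for each gene symbol, named raw by the authors, and a table of the series equals its 7 single-library files. The submitters' processing notes list STAR 2.7.5c, featureCounts 2.0.1, fastp 0.23.2, edgeR 3.42.4 and the build mm10, and each library was made from 5 ng of total RNA per the labels. The sources used here give neither annotation nor strand setting, so genes that overlap a member (Lrrc26 and Grin1os at Grin1, Ppp3r2 at Grin3a) may have exchanged reads with it.

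From these counts, sgNr2f2 was compared with sgRosa with edgeR 4.0.16 (R 4.3.3; quasi-likelihood test, TMM scaling, filterByExpr leaving 14412 genes, no term but the group) and Benjamini-Hochberg adjustment over all genes kept (threshold 0.05). Log2 CPM used a prior count of 2. For the comparison with neuronal content, effective library sizes were set by the mean log2 count (plus 0.5) of 16 pan-neuronal genes. Count ratios had 0.5 added to each count. The exon lengths, coordinates and GC content came from GENCODE vM21 on GRCm38, and the promoters from RefSeq GRCm38.p6. Fits were tested on simulated data with large changes and with less spread between libraries than was estimated here. That test does not show how the fits perform at the spread of these libraries. Alternatives were other scalings, no filter on low counts, DESeq2 1.42.0, limma-voom (limma 3.58.1) with and without quality weights, the replicate number as a block, a GC correction and leaving out each library.

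The genes named are the 10 members, Grin3b, Nr2f2 and the 3 genes of smallest p of each pathway list. The 3 most abundant pan-neuronal genes and the 5 genes most like the members in profile were also named. Snap25, the other pan-neuronal genes named and the cell type markers singled out were chosen after their values were seen. The members and lists were chosen with earlier results of these data known.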

Additional observations from a re-analysis of the deposited data

Results flagged for a closer look

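In sgRosa, with 4 libraries, the highest library stood apart from the rest by Dixon's gap test for 3 of the 15 measures tested, each time sgRosa replicate 4. These were the level of Grin1 at 376.5 CPM (next highest 48.2 CPM), the level of Grin2d at 42.7 CPM (next highest 5.34 CPM) and the geometric mean of the pan-neuronal genes at 139.4 CPM (next highest 48.6 CPM). Levels were tested as plain CPM and not as log2 CPM, whereas the 4 ratios were tested as log2 values, so the flags hold for that scale. Chance alone flags about 1 in 20 groups where the values are normally distributed. The sgNr2f2 group, with 3 libraries, was too small for this test.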

How the results depend on the processing

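None of the 9 subunit genes passed in any alternative fit. Of 180 alternative fold changes, 165 kept their direction and 15 turned, 11 of them for Grin2c: to 0.67 with pan-neuronal scaling and with limma-voom, 0.72 with limma-voom quality weights, 0.25 with GC correction, 1.01 with the replicate block and, without sgRosa replicate 4, to 0.85 with pan-neuronal scaling, 0.93 in DESeq2 and 0.52 with GC correction. With quality weights Grin1 lay at 0.036 and Grin2b at 0.29, and the median of the 9 was -0.093, close to the -0.049 of all genes. With GC correction and without sgRosa replicate 4, Gria4 lay at 2.2e-05. Leaving out 1 library at a time gave -0.72 to 0.047 for Grin2b and -0.52 to 0.90 for Grin2c. With pan-neuronal scaling it gave -0.60 to 0.37 for Gria2, -0.22 to 0.29 for Gria4, -0.33 to 0.69 for Grin2b and -0.64 to 0.11 for Grin3a. For the log2 ratios it gave -0.67 to 0.013 for Gria1 to Gria2, -0.30 to 0.53 for Gria4 to Gria2 and -0.17 to 1.06 for Grin2b to Grin1. The cause of these turns was not tested, beyond the library left out.

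The labels do not say that replicate numbers pair the libraries. Same-numbered libraries had correlations of -0.20, -0.26 and 0.090 of their deviations, and the other pairs had -0.14 to 0.25. With 3 such pairs this cannot settle whether the libraries were paired. Replicate 4 is present only in sgRosa, so the replicate block removes it from the group difference. With the block the log2 differences of the ratios were 0.013 for Gria1 to Gria2 and -0.17 for Grin2b to Grin1, as without that library. With it 0 genes passed. The block is thus not a check separate from leaving out sgRosa replicate 4. Over all genes, edgeR called 0 (with an unadjusted p below 0.05 there were 314 on the higher side, 407 on the lower). DESeq2 called 1 higher and 6 lower, and 233 and 124 without sgRosa replicate 4; pan-neuronal scaling without that library called 27 and 10. Low counts limit Grin2c and Grin2a most. Without a pseudocount the Grin2a to Grin2b ratio could not be computed.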
